A study of Homo sapiens with 4 samples.

Results

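The expression of 10 genes that write or maintain repressive marks on DNA and histone H3 was followed in A549, an established human lung adenocarcinoma cell line, with and without LIMA1 knockdown and with and without nutlin-3a. The genes were taken by symbol, 10 of 42113 gene models: DNMT1, UHRF1, HELLS, DNMT3A and DNMT3B of DNA methylation, EZH2, SUZ12 and EED of Polycomb repressive complex 2 (PRC2), and SUV39H1 and SUV39H2 of histone H3 lysine 9 (H3K9) methylation. The groups were knockdown cells, which carry a stable lentiviral short hairpin RNA (shRNA) against LIMA1, given nutlin-3a; control cells, which carry a control hairpin, given nutlin-3a; untreated knockdown cells; and untreated control cells. Nutlin-3a, which frees p53 from its ubiquitin ligase MDM2, was used at 10 µM, and RNA was taken after 24 h. All cells carried a lentiviral hairpin; the sources used here do not say whether each line was a clone or a pool, or how many hairpins targeted LIMA1. The stated question was how LIMA1 knockdown alters p53-driven transcription; LIMA1 encodes the actin-binding protein EPLIN.

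Each group was 1 library, so no difference was tested and no p-value is given. Libraries held 15150679 to 16744856 fragments. Values are fragment counts scaled per library, called normalized counts here, and are not divided by gene length. A difference is that of log2(normalized count + 1), and a gene counts as called where its difference reaches 1 (higher) or -1 (lower). Brackets after a difference give the exact (Clopper-Pearson) 95% interval of the ratio of the 2 libraries' fragments; it covers counting error only, not variation between cultures. LIMA1 stood at 133 normalized counts in knockdown and 866 in control cells with nutlin-3a, and at 68.3 and 416 in untreated cells. CDKN1A, the p53 target that encodes p21, had 48106 under nutlin-3a and 1178 untreated in knockdown cells, and 34078 and 1066 in control cells. All 6 epithelial markers were measured, though EPCAM had 31.1 normalized counts in knockdown and 111 in control cells with nutlin-3a, and 82.1 and 229 in untreated cells; of 10 alveolar type II markers only ABCA3 was measured, 6 being at or under 3 fragments in every library, SFTPC and NKX2-1 among them. Of the 7 fibroblast and 8 blood and endothelial markers, COL1A1 and CD68 were measured.

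DNA methylation at CpG sites is copied after replication by DNMT1, which UHRF1 brings to hemimethylated DNA; HELLS is a chromatin remodeler that opens nucleosomal DNA to this machinery, and DNMT3A and DNMT3B set methylation at unmethylated sites. PRC2 methylates lysine 27 of histone H3 (H3K27) through EZH2 or its paralog EZH1, and needs SUZ12 and EED as scaffold and reader of the mark. SUV39H1 and SUV39H2 methylate H3K9 in constitutive heterochromatin. Several of these genes are known E2F targets in proliferating cells, and p53 is known to repress many E2F-driven genes through p21.

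Promoter windows from RefSeq, build GRCh38.p14, were read for the 10 genes, from 250 bases before to 50 after each annotated start. DNMT1, UHRF1, EZH2 and HELLS are shown as the genes called lower with nutlin-3a in both lines that hold an E2F-like match, a choice made after the matches were seen, and DNMT3B as a gene that was not called and holds none. SUV39H1 and SUV39H2, also called lower in both lines, hold no such match and are not printed. Each is written 5′ to 3′ in the direction of the gene, with matches in capitals. The matches are an E2F-like TTTNNCGC (NN being CC, GG, CG or GC) and CCAAT, on either strand, so that CCAAT on the other strand reads ATTGG. The windows are chr19:10194904-10195203 on the minus strand for DNMT1, chr19:4909894-4910193 on the plus strand for UHRF1, chr7:148884242-148884541 on the minus strand for EZH2, chr10:94545538-94545837 on the plus strand for HELLS and chr20:32779602-32779901 on the plus strand for DNMT3B.
DNMT1: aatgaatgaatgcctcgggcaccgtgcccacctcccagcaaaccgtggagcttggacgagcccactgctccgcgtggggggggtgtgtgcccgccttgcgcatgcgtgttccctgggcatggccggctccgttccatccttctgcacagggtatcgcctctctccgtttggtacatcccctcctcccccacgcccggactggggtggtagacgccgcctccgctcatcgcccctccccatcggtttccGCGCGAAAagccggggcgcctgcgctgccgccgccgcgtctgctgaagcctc
UHRF1: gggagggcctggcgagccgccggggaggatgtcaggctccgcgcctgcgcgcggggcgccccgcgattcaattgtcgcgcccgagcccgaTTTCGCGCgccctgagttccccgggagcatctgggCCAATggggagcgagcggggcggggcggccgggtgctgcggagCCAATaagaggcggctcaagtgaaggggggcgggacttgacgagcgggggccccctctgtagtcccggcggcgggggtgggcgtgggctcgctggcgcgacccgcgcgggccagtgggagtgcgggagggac
EZH2: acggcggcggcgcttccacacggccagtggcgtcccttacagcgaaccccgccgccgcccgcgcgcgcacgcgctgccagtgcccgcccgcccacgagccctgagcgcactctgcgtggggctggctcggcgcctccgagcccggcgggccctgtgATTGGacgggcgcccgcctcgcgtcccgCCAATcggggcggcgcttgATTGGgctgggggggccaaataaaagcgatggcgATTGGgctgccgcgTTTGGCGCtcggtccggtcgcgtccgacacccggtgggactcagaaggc
HELLS: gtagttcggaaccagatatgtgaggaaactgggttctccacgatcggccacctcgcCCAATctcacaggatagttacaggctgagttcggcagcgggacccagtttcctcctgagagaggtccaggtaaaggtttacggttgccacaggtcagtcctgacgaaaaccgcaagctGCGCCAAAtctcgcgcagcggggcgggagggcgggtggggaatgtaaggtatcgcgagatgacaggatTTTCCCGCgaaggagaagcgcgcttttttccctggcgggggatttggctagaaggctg
DNMT3B: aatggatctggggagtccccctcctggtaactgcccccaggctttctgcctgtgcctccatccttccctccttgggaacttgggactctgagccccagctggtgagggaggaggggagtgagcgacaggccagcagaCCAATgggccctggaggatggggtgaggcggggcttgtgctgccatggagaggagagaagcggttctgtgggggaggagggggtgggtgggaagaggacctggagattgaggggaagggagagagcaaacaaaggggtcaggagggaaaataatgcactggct

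TTTNNCGC was found in at least 1 window of 5 of the 10 genes, DNMT1, UHRF1, HELLS, EZH2 and SUZ12, and in 3.99% of the 27305 genes and 3.31% of the 35116 windows in the RefSeq table. In DNMT1 it reads GCGCGAAA, so the match is on the other strand, and spans the start, from base -2 to base 6 counted from the first transcribed base. EZH2 has 2 windows and 1 of them holds a match, TTTGGCGC at bases 2 to 9. That window was printed because it holds the match. In HELLS TTTCCCGC ends at base -1, with a further match on the other strand from base -76 to -69. UHRF1 has 3 windows and 2 of them hold a match; the one printed was chosen, after the matches were seen, because its match lies on the strand of the gene. CCAAT was found for 7 of the 10 genes and 39.7% of all genes, with 4 matches in 1 window of EZH2 alone. TTTGAA, the core of the cell cycle genes homology region (CHR), searched on both strands, was found for 3 of the 10, DNMT3A, SUV39H2 and SUZ12, and for 18.2% of all genes. For the SUZ12 window and the DNMT3A window with TTTGAA, the bases after the start were not found in GENCODE 29 transcripts. The starts of these windows, and so the place of their matches, are less certain. No 2 matches overlap in the windows printed. Genes with several windows have more chances of a match, and the letters are a description of the window, not of bound factors.

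With nutlin-3a, the genes that copy DNA methylation, the catalytic subunit of PRC2 and both SUV39H enzymes were lower in both cell lines, while the de novo methyltransferases and EED were not called. In knockdown cells 7 of the 10 were lower by at least 1 and 0 higher, beside 6.08% lower and 7.29% higher of all 12742 gene models measured. In control cells 6 were lower and 0 higher, beside 5.64% and 5.54%. The 10 genes were chosen with earlier results of these data known. The shares of all models therefore give a scale for these counts and are no test of the gene family. The median over the 10 was -1.59 in knockdown cells and -2.01 in control cells, where the median of all measured models was -0.02 in each. All 10 genes passed the filter for measured genes, a mean of at least 30 normalized counts over the 4 libraries, and all their values were whole fragments. In the same libraries all 28 mitotic genes of a list were lower, with medians of -5.00 in knockdown and -4.68 in control cells, and the part of the cells' division state in the levels of the 10 genes was not tested. As these are bulk samples, fewer cells expressing a gene and less RNA per cell cannot be told apart.

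**Figure D1:**
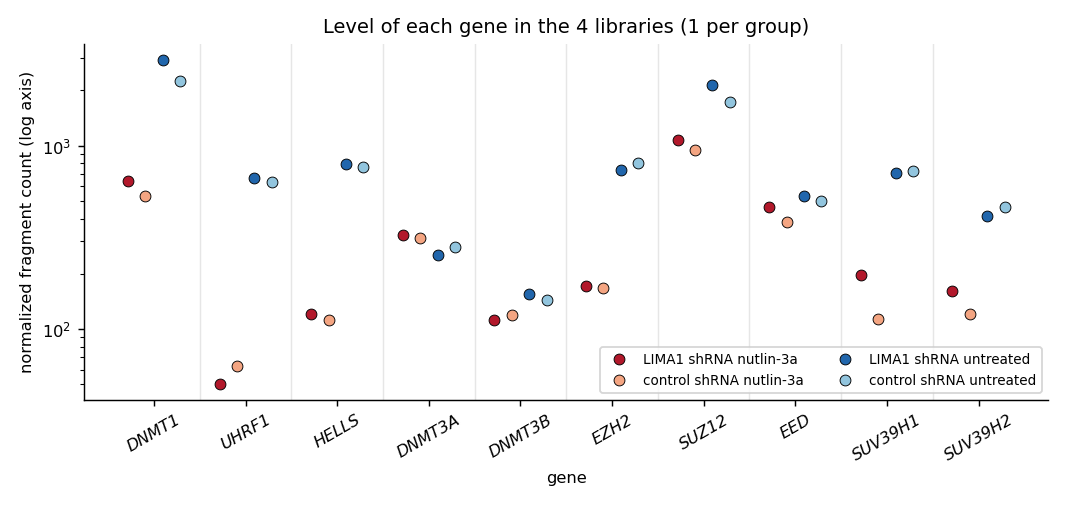
Normalized fragment count (log axis) of each of the 10 genes, by library; each point is 1 library, with the nutlin-3a libraries left of the untreated ones. For DNMT1, UHRF1, HELLS, EZH2, SUV39H1 and SUV39H2 both nutlin-3a libraries lie far under both untreated ones, UHRF1 at 50.4 and 62.5 against 663 and 634, whereas DNMT3A lies slightly above them.

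UHRF1, the factor that recruits DNMT1 to newly copied DNA, had the lowest difference of the 10 genes in both lines. It had 50.4 normalized counts under nutlin-3a and 663 untreated in knockdown cells, a difference of -3.69 (-4.18 to -3.29), or 7.60% of the untreated level. In control cells it stood at 62.5 with nutlin-3a and 634 without, a difference of -3.32 (-3.74 to -2.97), or 9.86%. Its lowest library held 47 fragments, and its intervals are the widest of the genes called lower.

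HELLS, the remodeler, had 120.1 normalized counts under nutlin-3a and 792 untreated in knockdown cells (-2.71, -3.02 to -2.43). In control cells it stood at 112 and 761 (-2.75, -3.06 to -2.48). Both lines gave nearly the same value for HELLS. DNMT1, the maintenance methyltransferase, stood at 644 with nutlin-3a and 2921 without in knockdown cells (-2.18, -2.31 to -2.05), and at 528 and 2245 in control cells (-2.09, -2.23 to -1.95). It was the most abundant of the 10 genes in untreated cells, both in fragments and per kilobase of transcript, but not per kilobase of coding sequence.

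The de novo methyltransferases did not follow DNMT1. DNMT3A had 324 normalized counts under nutlin-3a and 252 untreated in knockdown cells (0.36, 0.11 to 0.61), and 313 and 280.0 in control cells (0.16, -0.07 to 0.39). It was the only one of the 10 genes with a positive difference, in both lines. DNMT3B stood at 113 and 155 in knockdown cells (-0.46, -0.84 to -0.10) and at 119 and 144 in control cells (-0.27, -0.63 to 0.08). Both genes stayed under the size for a call, and in control cells their counting intervals include 0.

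Within PRC2 the catalytic subunit and the other core subunits differed in size of response. EZH2 had 172 normalized counts under nutlin-3a and 736 untreated in knockdown cells (-2.10, -2.36 to -1.85), and 167 and 808 in control cells (-2.27, -2.52 to -2.04). SUZ12 stood at 1072 and 2147 in knockdown cells (-1.002, -1.11 to -0.89) and at 946 and 1726 in control cells (-0.87, -0.98 to -0.75). SUZ12 lay at the edge of the call in knockdown cells: with each of 3 other library scalings, or a pseudocount of 30, its difference ran from -0.995 to -0.93 and only 6 genes were called. SUZ12 has a near-identical partial copy, SUZ12P1, at 13.4 to 18.6 normalized counts in the 4 libraries, and reads shared between them could have been counted at either. EED, the reader subunit, stood at 463 and 533 in knockdown cells (-0.20, -0.39 to -0.02) and at 381 and 498 in control cells (-0.38, -0.58 to -0.19).

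The ratio of EZH2 to its partners, which does not depend on library scaling, was therefore lower with nutlin-3a. EZH2 over SUZ12 was 0.160 with nutlin-3a and 0.343 without in knockdown cells, and 0.176 and 0.468 in control cells. EZH2 over EED was 0.370 and 1.38 in knockdown cells, and 0.437 and 1.62 in control cells. These ratios are of fragments, so they compare libraries and not the subunits' amounts.

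SUV39H1 had 196 normalized counts under nutlin-3a and 708 untreated in knockdown cells (-1.85, -2.09 to -1.61), and 113 and 729 in control cells (-2.68, -2.98 to -2.40). SUV39H2 stood at 162 and 412 in knockdown cells (-1.34, -1.62 to -1.07), and at 121 and 463 in control cells (-1.93, -2.23 to -1.65). Both H3K9 methyltransferase genes were lower with nutlin-3a in each line, by less in knockdown cells. For SUV39H2 the nearest limits of the 2 lines, -1.62 in knockdown and -1.65 in control cells, nearly meet.

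Set among all 12742 measured gene models, 1.0% were lower than UHRF1 with nutlin-3a in knockdown cells and 1.3% in control cells. For HELLS these shares were 1.6% and 1.7%, for DNMT1 2.2% and 2.3%, and for EZH2 2.2% in both lines. SUV39H1 had 2.6% of models under it in knockdown and 1.8% in control cells, and SUV39H2 4.0% and 2.6%. SUZ12, at 6.1% and 7.0%, lay less far down, and EED, at 35.7% and 21.5%, and DNMT3B, at 19.7% and 28.9%, lay within the bulk of genes. DNMT3A lay above most of them, with 75.7% of models under it in knockdown and 64.9% in control cells.

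Ratios within a library describe how the partners differed from each other. UHRF1 over DNMT1, the recruiter over its enzyme, was 0.0782 under nutlin-3a and 0.227 untreated in knockdown cells, and 0.118 and 0.283 in control cells. DNMT1 over DNMT3B was 5.72 and 18.8 in knockdown cells, and 4.43 and 15.6 in control cells. SUZ12 over EED was 2.31 and 4.03 in knockdown cells, and 2.48 and 3.47 in control cells. SUV39H1 over SUV39H2 was 1.21 and 1.72 in knockdown cells, and 0.934 and 1.57 in control cells. HELLS over CDCA7, its recruiter, was 0.392 and 0.765 in knockdown cells, and 0.301 and 0.846 in control cells. Each of these ratios was lower under nutlin-3a than untreated in both lines.

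**Figure D2:**
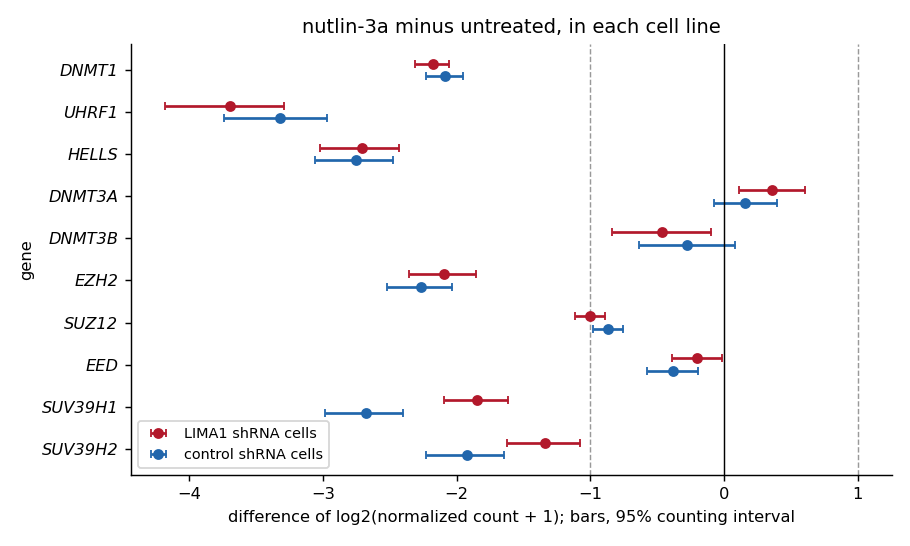
Difference of log2(normalized count + 1) between nutlin-3a and untreated cells for each gene, in knockdown (LIMA1 shRNA) cells (red, upper) and control cells (blue, lower); bars are 95% counting intervals and dashed lines mark the size for a call. UHRF1 lies farthest left, at -3.69 and -3.32, DNMT3A lies right of 0, and the points of the lines lie farthest apart for SUV39H1 and SUV39H2.

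Because values are not divided by length, levels were compared between genes per kilobase, with lengths of the protein-coding GENCODE 29 transcript that has the longest coding sequence. Per kilobase of coding sequence, DNMT1 made up 44.8% of the summed level of DNMT1, DNMT3A and DNMT3B with nutlin-3a and 79.6% without in knockdown cells, and 40.1% and 74.3% in control cells. DNMT3A made up 40.3% and 12.3% in knockdown cells, and 42.5% and 16.6% in control cells. Thus DNMT1 and DNMT3A stood at similar levels per coding length with nutlin-3a, at 132 and 118 normalized counts per kilobase in knockdown cells and at 108 and 114 in control cells. Per kilobase of whole transcript, where DNMT3A is long, DNMT1 kept a larger share, 67.3% with nutlin-3a and 90.0% without in knockdown cells and 62.7% and 87.3% in control cells.

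The pair of H3K27 methyltransferases also differed in opposite directions. EZH1, which is known to be expressed in resting cells, had 402 normalized counts under nutlin-3a and 277 untreated in knockdown cells (0.54, 0.31 to 0.77), and 400.05 and 268 in control cells (0.58, 0.36 to 0.80), short of a call. Per kilobase of coding sequence EZH2 made up 29.8% of EZH2 and EZH1 with nutlin-3a and 72.6% without in knockdown cells, and 29.3% and 75.01% in control cells. Per kilobase of transcript these shares were 42.8% and 82.3%, and 42.2% and 84.1%, so EZH1 was the larger of the pair with nutlin-3a by either length. Per kilobase of coding sequence UHRF1 made up 9.97% of UHRF1 and its paralog UHRF2 with nutlin-3a and 51.0% without in knockdown cells. In control cells these shares were 11.0% and 51.0%. Unlike EZH1, UHRF2 was itself lower with nutlin-3a. It stood at 177 normalized counts per kilobase with nutlin-3a and 248 without in knockdown cells, and at 196 and 237 in control cells.

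**Figure D3:**
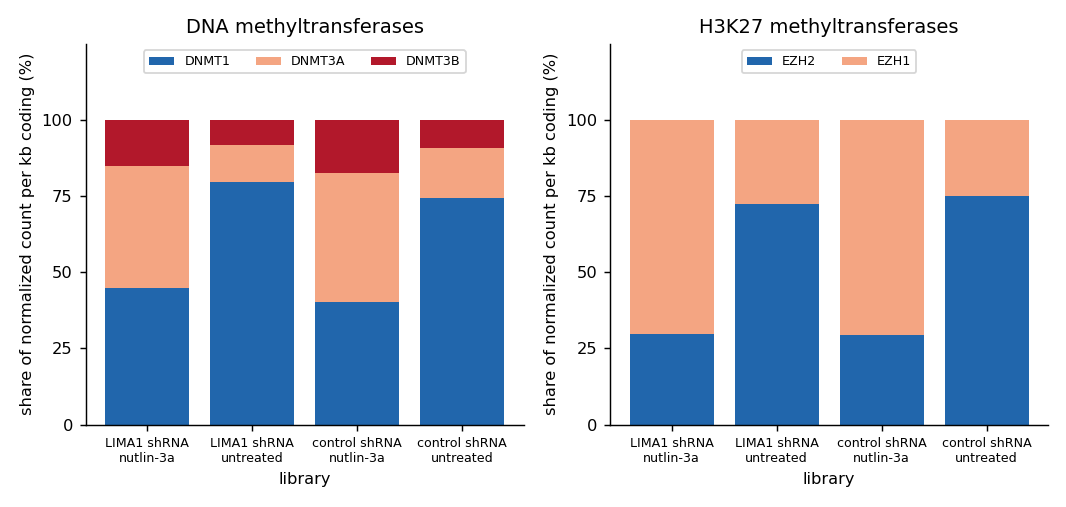
Share of the summed normalized count per kilobase of coding sequence (%) taken by DNMT1, DNMT3A and DNMT3B (left) and by EZH2 and EZH1 (right), by library. DNMT1 holds 44.8% and 40.1% in the nutlin-3a libraries against 79.6% and 74.3% in untreated ones, and EZH2 29.8% and 29.3% against 72.6% and 75.01%.

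Among the 10 genes, UHRF1 stood at 8 in the order of levels per kilobase in both untreated libraries and last in both nutlin-3a libraries, by transcript and by coding length. SUZ12 stood at 1 or 2 in every library by either length. Per kilobase of coding sequence SUZ12 had 484 normalized counts under nutlin-3a and 969 untreated in knockdown cells, and 427 and 778 in control cells. DNMT3A and DNMT3B held the last 2 places in untreated cells by either length. With 1 library a group, there is no spread against which to set neighbours in this order.

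Between knockdown and control cells the differences of these genes stayed under the size for a call, as did those of most measured models. With nutlin-3a, 0 of the 10 were called higher and 0 lower, knockdown against control, beside 1.26% and 1.94% of all measured gene models. In untreated cells 0 were higher and 0 lower, beside 1.04% and 2.05%. The median over the 10 was 0.14 with nutlin-3a and 0.06 untreated, against 0.03 and 0.02 for all measured models.

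SUV39H1 had the largest of these differences, in nutlin-3a cells, where 97.7% of all measured models had a lower one. It stood there at 196 normalized counts in knockdown and 113 in control cells (0.79, 0.45 to 1.14), but at 708 and 729 in untreated cells (-0.04, -0.19 to 0.11). SUV39H2 stood at 162 in knockdown and 121 in control cells with nutlin-3a (0.42, 0.06 to 0.77), and at 412 and 463 in untreated cells (-0.17, -0.36 to 0.02). For both, the lines were close when untreated and apart with nutlin-3a.

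DNMT1 and SUZ12 were above control in both treatments by more than counting error. DNMT1 was at 644 in knockdown and 528 in control cells with nutlin-3a (0.29, 0.12 to 0.46), and at 2921 and 2245 in untreated cells (0.38, 0.30 to 0.46). Of all measured models, 84.5% had a lower difference than DNMT1 with nutlin-3a and 91.5% untreated. For SUZ12 the differences were 0.18 (0.05 to 0.31) with nutlin-3a and 0.31 (0.22 to 0.41) untreated. EED was at 0.28 (0.08 to 0.48) with nutlin-3a and 0.10 (-0.08 to 0.28) untreated. Apart from SUV39H1 and SUV39H2, whose intervals with nutlin-3a lie above 0, the other members had intervals that include 0 in both treatments. UHRF1, at -0.31 (-0.89 to 0.26) with nutlin-3a, was among them. A lasting difference between the 2 lines and an effect of the hairpin cannot be told apart.

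**Figure D4:**
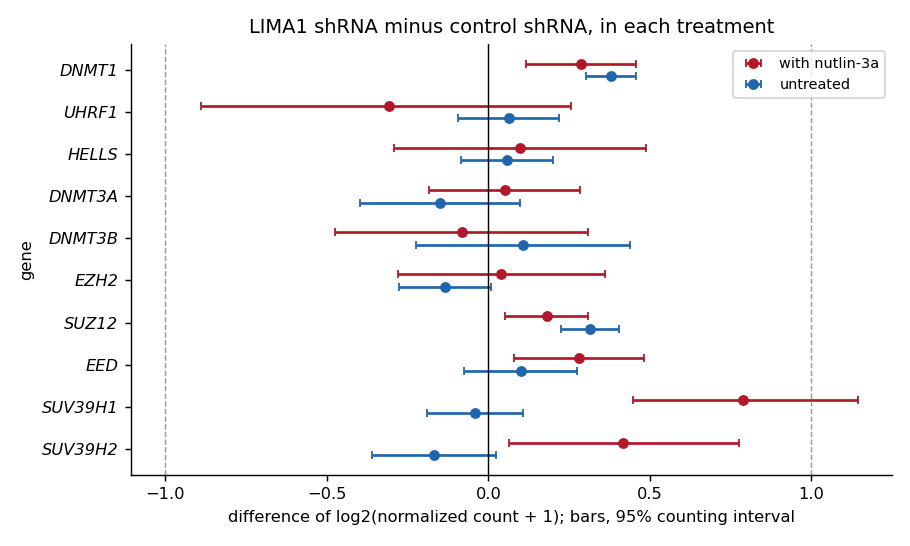
Difference of log2(normalized count + 1) between knockdown (LIMA1 shRNA) and control cells for each gene, with nutlin-3a (red, upper) and untreated (blue, lower); bars are 95% counting intervals. No gene reaches the dashed line at 1, and SUV39H1 with nutlin-3a comes closest, at 0.79.

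The nutlin-3a difference of knockdown cells, less the one of control cells, was 0.83 for SUV39H1 (counting interval 0.47 to 1.20) and 0.58 for SUV39H2 (0.20 to 0.98). The other 8 genes lay between -0.37, for UHRF1, and 0.20, for DNMT3A, and their intervals include 0. Of all measured gene models, 98.1% had a lower response difference than SUV39H1 and 96.2% a lower one than SUV39H2. None of the 10 was called, 0 higher and 0 lower, beside 1.27% and 0.816% of all measured models. For this difference of 4 libraries the interval comes from the summed reciprocals of the fragment counts.

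The other lists of silencing and demethylation genes had medians nearer 0 than the 10 with nutlin-3a. Their called counts stand beside 6.08% lower and 7.29% higher of all measured models in knockdown cells, and 5.64% and 5.54% in control cells. With such shares, 1 or 2 called genes say little about a list. Among DNA methylation partners and readers, 2 of 14 measured genes were lower in each line and 0 higher, and the median was -0.38 in knockdown and -0.37 in control cells. The 2 were CDCA7, the zinc finger protein that recruits HELLS, at -1.75 and -1.27, and its paralog CDCA7L, at -2.35 and -1.45 with some fractional fragments. ZBTB4, a zinc finger protein that binds methylated DNA, was at 0.81 and 0.70. The 7 measured genes of TET oxidation and base excision had 0 called in either direction in both lines, with medians of 0.02 and -0.09.

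Of 11 measured PRC2 partners, 1 was lower and 0 higher in each line, with medians of -0.35 in knockdown and -0.27 in control cells. It was PHF19, a Polycomb-like protein that binds methylated lysine 36 of histone H3 and recruits PRC2, with 169 normalized counts under nutlin-3a and 893 untreated in knockdown cells (-2.39) and 226 and 1108 in control cells (-2.29). Its paralog MTF2 was at -0.64 and -0.63, and the histone-binding subunit RBBP7 at -0.89 and -0.72. In PRC1 and the deubiquitinase PR-DUB, 2 of 27 were lower and 0 higher in each line, with medians of -0.21 and -0.25. They were CBX2, a chromodomain subunit, at -1.58 in both lines, and SCML2 at -1.31 in both. CBX7 was lower in knockdown than control cells when untreated (-1.02) and at -0.52 with nutlin-3a.

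Of 19 other H3K9 methyltransferase, HP1 and related genes, 2 were lower in knockdown and 1 in control cells, and 0 higher, with medians of -0.26 and -0.22. The heterochromatin protein genes CBX3 (-1.22 and -1.17) and CBX5 (-1.08 and -0.96) led, followed by CBX1 (-0.72 and -0.82) and the corepressor TRIM28 (-0.75 and -0.63). MECOM was higher in knockdown than control cells, at 200.5 normalized counts against 85.4 with nutlin-3a (1.22) and 220 against 82.9 untreated (1.39). Of 12 measured demethylases, 1 was higher and 0 lower in each line, KDM4B, an H3K9 demethylase, at 924 with nutlin-3a and 347 without in knockdown cells (1.41) and at 712 and 284 in control cells (1.32). KDM7A was at 0.98 and 0.94, and the H3K27 demethylase KDM6B at 0.74 and 0.80, both short of a call. The median of this list was 0.02 and 0.04.

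**Figure D5:**
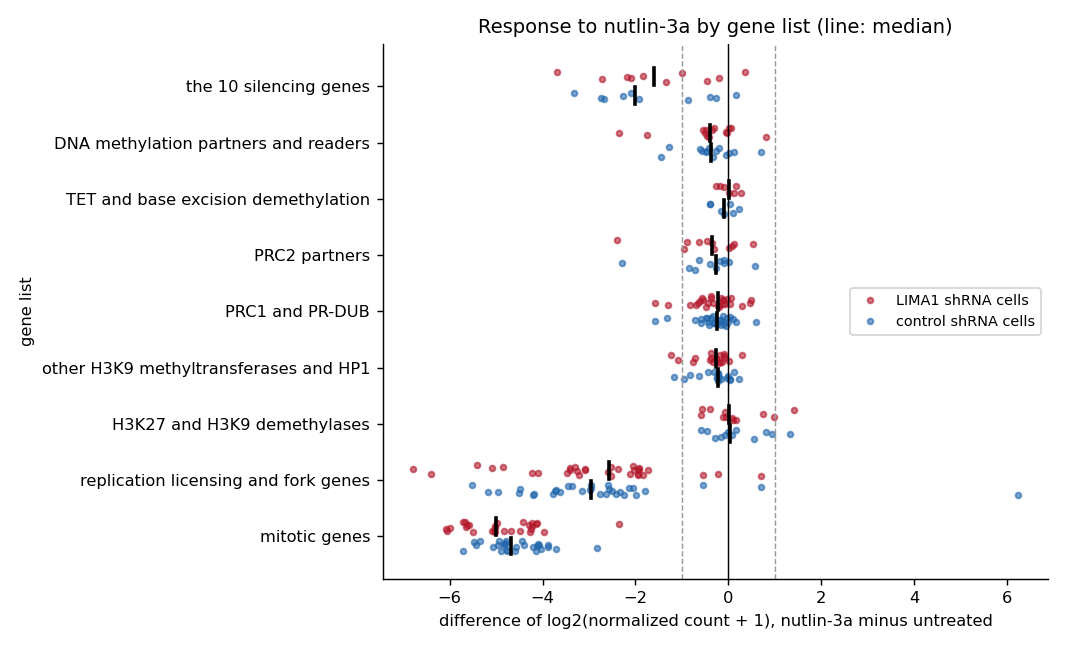
Difference of log2(normalized count + 1) between nutlin-3a and untreated cells for every measured gene of 9 lists, in knockdown (LIMA1 shRNA) cells (red, upper) and control cells (blue, lower); black lines are medians and dashed lines mark the size for a call. The medians of the 10 silencing genes, -1.59 and -2.01, lie between those of the other chromatin lists, near 0, and those of the replication and mitotic genes, down to -5.00. The 10 genes themselves are spread widely, from -3.69 to 0.36 in knockdown cells and from -3.32 to 0.16 in control cells. The point at 6.25 is PRIM2, whose fragments were fractional.

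Genes of DNA replication and mitosis were lower alongside. Of 32 replication licensing and fork genes, 29 were lower in each line, with 0 higher in knockdown and 1 higher, PRIM2 (125.2 normalized counts in nutlin-3a control cells and at most 1.22 elsewhere, fractional fragments), in control cells; the medians were -2.56 and -2.96. All 28 mitotic genes were lower in both lines, with medians of -5.00 and -4.68 and a summed level of 3480 normalized counts with nutlin-3a and 71816 without in knockdown cells, and 3755 and 72196 in control cells. Of 19 RB and E2F regulators, 8 were lower in knockdown and 9 in control cells and 0 higher, with medians of -0.68 and -0.58; E2F8, an E2F repressor with 2 and 8 fragments under nutlin-3a, was at -6.62 (-10.2 to -5.30) and -5.31 (-6.69 to -4.48), and MYBL2 at -5.70 and -5.30. LIN9, a subunit of the DREAM and MMB complexes, was higher in knockdown than control cells with nutlin-3a (1.12), and LIN52, of the same complexes, lower in both treatments (-1.40 with nutlin-3a and -1.69 untreated). AURKB (-1.22) and UBE2C (-1.02) of mitosis, MCM10 (-1.02) of replication and the regulators E2F2 (-1.22) and E2F8 (-1.51) were also lower in knockdown than control cells with nutlin-3a, all from 2.14 to 59.6 normalized counts there, and the intervals of MCM10 (-2.33 to 0.04) and E2F8 (-5.16 to 0.44) include 0.

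The genes whose profile over the 4 libraries was most like a member's were sought among 9827 others with a mean of at least 150, by the Euclidean distance between centred log2 profiles. Nearest to DNMT1 was POLA1, the catalytic subunit of DNA polymerase alpha, at a distance of 0.11 log2 units; it stood at 389 and 1628 normalized counts with and without nutlin-3a in knockdown cells and at 296 and 1233 in control cells. SMC4 (0.19, fractional fragments) and CTNNAL1 (0.20) came after it. Nearest to UHRF1 were HMGB2 (0.12), LMNB1 (0.13) and NUSAP1 (0.19). Nearest to EZH2 were TUBB (0.10), LMNB2 (0.12) and CDK2 (0.12, fractional fragments). With 4 libraries, such closeness describes these profiles and nothing more.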

How the data were processed

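RNA-seq of 4 A549 libraries, 1 per group, was read from the deposited tables, 1 value per gene model; groups come from the titles of the samples, written there as si although the protocols describe hairpins. Per the submitters' processing notes, build hg19 and bcl2fastq 1.8.3, Bowtie2 2.0.12 and Cuffnorm 2.2.1 were used, with no role given; annotation and strand setting are not given in the sources used here, so overlapping antisense reads cannot be told apart. The deposited signal was found, from the values, to be fragment counts divided by 1 factor per library: 1 fragment is worth 0.943 to 1.07, and 86.2% to 87.1% of a library's values from 0.5 to 9000 fragments lay within 0.1 of a whole number, too few for a count test. All values of the 10 genes were whole.

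Gene models with a mean of at least 30 were measured (12742). The pseudocount of 1 and call size of 1 follow earlier work on these data; the members and the 15 lists were chosen with earlier results of these data known. Of each list, up to 4 measured genes with the largest mean nutlin-3a difference were eligible to be named, with any gene called between the lines. The calling step was tested on simulated data. Protein sequences were not used here. Alternatives were other pseudocounts, scalings, filters and call sizes, and leaving out genes of fractional fragments. Promoter windows are from RefSeq, lengths from GENCODE 29. Python 3.11.15, numpy 2.4.6, pandas 2.3.3, scipy 1.17.1 and matplotlib 3.10.9 were used.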

Additional observations from a re-analysis of the deposited data

Results flagged for a closer look

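For 6 of the 10 genes the difference between knockdown and control cells had one sign with nutlin-3a and the other in untreated cells. The share of all measured models that do so was not counted, so the 6 cannot be set against it. The difference between treatments was not tested, as each group is 1 library. SUV39H1 was at 0.79 with nutlin-3a and -0.04 untreated, and SUV39H2 at 0.42 and -0.17. UHRF1 was at -0.31 with nutlin-3a and 0.06 untreated. DNMT3A was at 0.050 and -0.15, DNMT3B at -0.081 and 0.11, and EZH2 at 0.040 and -0.13, its nutlin-3a value turning to -0.0087 with equal library totals; for these 3 and UHRF1 the counting intervals include 0 in both treatments. The nutlin-3a responses of all 10 genes had the same sign in both cell lines, again without a count over all models.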

How the results depend on the processing

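Of 395 differences of single genes recomputed under the alternatives, 393 moved by less than the mean distance to the limits of their counting interval. Among these, 50 without a filter, 45 with means of at least 150 and 50 without genes of fractional fragments could not move. Those settings change only which genes are counted. Another 2 moved by more, and 0 of the called ones turned. The 2 were UHRF1 with nutlin-3a under a pseudocount of 30, at -3.11 in knockdown and -2.84 in control cells, since this pseudocount shrinks low values. EZH2 between the lines with nutlin-3a, not called, went to -0.0087 with equal library totals. Under a call size of 2, 4 genes in place of 7 were lower with nutlin-3a in knockdown cells, beside 2.37% of all measured models. Under a size of 0.585, 1 gene, SUV39H1, was higher in knockdown cells with nutlin-3a, beside 4.37% of models. At that size 1 gene, again SUV39H1, had a higher response, beside 3.74% of models, and SUV39H2 fell just short at 0.584. With means of at least 150, which leaves out DNMT3B, the median response in knockdown cells was -1.85. Other counts and medians over the 10 genes stayed within 1.5 times the main count or within counting error. No paired analysis was possible because each group has 1 library, and for the same reason none could be left out. Fragment counts of 47 to 63 for UHRF1 with nutlin-3a set the widest limits.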

Other observations

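Genes that DNA methylation or Polycomb is known to hold silent were also read. Of 26 germline genes with a row, such as the meiotic gene SYCP3 and the cancer-testis antigens, 22 were at or under 3 fragments in all 4 libraries, and 2 or 3 were above it in each library. MAGEA6 had 810.4 normalized counts under nutlin-3a and 962 untreated in knockdown cells, and 839 and 993 in control cells; MAGEA genes have near-identical copies, so its level is uncertain. HORMAD1 stood at 154 and 166 in knockdown cells and at 177 and 155 in control cells. Neither was called in any comparison, and the median of this pair was -0.18 in knockdown and -0.03 in control cells.

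Of 39 HOX genes, which are classic Polycomb targets, 19 were measured and 11 were at or under 3 fragments in every library. With nutlin-3a, 2 were higher in knockdown cells and 1 in control cells, beside 7.29% and 5.54% of all measured models. In either line 0 were lower, beside 6.08% and 5.64%, and the medians were 0.08 and 0.03. HOXC13 had 660 normalized counts under nutlin-3a and 174 untreated in knockdown cells (1.92) and 512 and 187 in control cells (1.44). HOXB13 was at 1.47 and 0.87. Both had fractional fragments. HOXC4 was lower in untreated knockdown than control cells, at 33.6 against 73.5 (-1.11). The HOX median between knockdown and control cells was -0.12 with nutlin-3a and -0.27 untreated.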
